A study of Homo sapiens with 6 samples.

Results

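The p53 pathway was followed through 36 genes, taken as the rows of the deposited table whose symbol equalled that of a named p53 target or regulator. All 36 were found, of 57773 genes in all, and all 36 had enough counts to be tested among 15848 genes. RNA of A549 cells, a human lung adenocarcinoma line, was sequenced after 48 h with rhSP-D, the recombinant human form of surfactant protein D (a collectin that alveolar cells secrete), at 10 µg/ml, or with vehicle, an equal volume of its elution buffer, for the same time. Each group held 3 samples of the same line in serum-supplemented medium, with totals of 18599955 to 26030880 counts in rhSP-D and 11396193 to 19803697 in vehicle. Whether the triplicates were separate cultures is not stated in the sources used here; the p-values therefore reflect only how these samples varied, and that variation may be technical.

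The transcription factor p53 is held low by the ubiquitin ligase MDM2 and its partner MDM4, and it accumulates when cells sense DNA damage or other stress. It then switches on genes that arrest the cell cycle, start apoptosis, repair DNA and adjust metabolism, and it also switches on MDM2, which closes a feedback loop. A549 cells are known to lack the CDKN2A locus, whose ARF product restrains MDM2. In these libraries CDKN2A had 0, 2 and 1 counts in rhSP-D and 0, 2 and 2 counts in vehicle, at or under the floor of 3 counts in each library.

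Epithelial markers were abundant: EPCAM, CDH1 and 4 keratins, of which 2 (KRT7 and KRT18) rose, summed to 12509.9 to 12742.9 CPM (counts scaled to a common library total) in rhSP-D and 11997.4 to 12123.5 CPM in vehicle. Of 6 leukocyte markers 2 were abundant enough to test, and 1, the lysosomal protein gene CD68, which rose by 8.94%, made up most of their sum of 93.0 to 98.4 CPM in rhSP-D and 84.7 to 90.6 CPM in vehicle, while PTPRC and CD3E were near 0. Fibroblast markers, with DCN at 0, summed to at most 13.4 CPM in rhSP-D and 13.6 CPM in vehicle, and 4 endothelial markers to at most 0.273 CPM in rhSP-D and 0.112 CPM in vehicle. With library totals as the only scaling KRT18 and CD68 did not pass (adjusted p = 0.732 and 0.114, edgeR). The part of these markers in the p53 results was not tested. Vehicle replicate 1, the shallowest library, stood apart on the first principal component, at -38.2 against 3.59 to 12.3 for the others.

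The recognition sequence of p53 is a pair of abutting p53 decamers, each of 10 bases, and RefSeq promoter windows (build GRCh38.p14, 250 bases before to 50 after each start) were searched for it on both strands, whose consensus is the same. Windows were found for 28 of the 36 genes, 41 windows in all. An element with at most 3 of 20 bases off the consensus lay in a window of 10 of the 28 genes, against 6.39% of 27305 genes with windows. The 10 elements are shown because they are the closest matches to the p53 recognition sequence in these windows. Capitals mark bases that match the consensus, and each is written 5′ to 3′ on the strand of its gene.
DDB2: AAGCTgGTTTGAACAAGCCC
AEN: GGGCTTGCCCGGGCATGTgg
FAS: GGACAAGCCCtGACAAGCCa
MDM2: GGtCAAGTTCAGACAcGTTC
FDXR: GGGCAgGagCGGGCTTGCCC
GDF15: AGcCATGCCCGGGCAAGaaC
PMAIP1: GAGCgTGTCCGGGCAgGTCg
RPS27L: GGcCTAGagCAGACAAGCCC
SESN1: GGACAAGTCTccACAAGTCa
XPC: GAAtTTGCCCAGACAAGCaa
DDB2 was closest, with 1 base off, and its element began 5 bases before the start, while those of AEN, FAS and MDM2 had 2 bases off. The other windows lie at chr10:88991181-88991480 (FAS, plus strand), chr19:18385908-18386207 (GDF15, plus), chr18:59899746-59900045 (PMAIP1, plus), chr17:74872945-74873244 (FDXR, minus), chr15:63157428-63157727 (RPS27L, minus), chr6:109008939-109009238 (SESN1, minus) and chr3:14178552-14178851 (XPC, minus). A match describes letters only, and no match in a window says nothing of sites elsewhere, such as the distal elements known for CDKN1A.

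3 windows are given whole, with the element in capitals: DDB2 (chr11:47214724-47215023, plus strand) and AEN (chr15:88621090-88621389, plus strand), whose RNA rose, and the internal promoter of MDM2 (chr12:68808767-68809066, plus strand), the textbook feedback site of p53, whose RNA did not pass the test.
DDB2: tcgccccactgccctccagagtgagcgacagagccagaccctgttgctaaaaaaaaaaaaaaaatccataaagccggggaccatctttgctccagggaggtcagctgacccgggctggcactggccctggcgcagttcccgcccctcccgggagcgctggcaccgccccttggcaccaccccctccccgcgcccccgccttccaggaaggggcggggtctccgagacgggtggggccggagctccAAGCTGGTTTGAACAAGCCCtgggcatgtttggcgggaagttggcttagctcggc
AEN: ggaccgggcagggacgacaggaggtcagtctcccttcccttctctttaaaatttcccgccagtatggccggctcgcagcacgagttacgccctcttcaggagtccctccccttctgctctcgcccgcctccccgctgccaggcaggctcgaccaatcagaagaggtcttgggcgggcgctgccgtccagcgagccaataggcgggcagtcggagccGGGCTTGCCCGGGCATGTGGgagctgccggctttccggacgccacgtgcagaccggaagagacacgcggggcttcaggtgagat
MDM2: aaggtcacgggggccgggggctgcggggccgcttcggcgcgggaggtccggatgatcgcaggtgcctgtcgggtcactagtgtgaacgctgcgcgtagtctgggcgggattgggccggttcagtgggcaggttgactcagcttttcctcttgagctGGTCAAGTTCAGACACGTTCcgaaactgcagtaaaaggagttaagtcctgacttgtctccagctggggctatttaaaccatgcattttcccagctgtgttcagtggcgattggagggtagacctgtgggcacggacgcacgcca
Of the genes shown, 5 of the 10 genes with such an element rose (DDB2, AEN, FDXR, GDF15 and RPS27L), 1 fell (PMAIP1) and 4 did not pass. Among the other 18 genes with a window 3 rose, 1 fell and 14 did not pass, and of the 8 without a window 1 rose and 7 did not pass. Of all genes tested 9.31% rose and 6.63% fell, and these counts were not compared by a test.

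With rhSP-D, more of the p53 pathway genes rose than fell, and no called change exceeded that of PHLDA3. Of the 36 genes 9 rose and 2 fell at an adjusted p under 0.05, where 9.31% of all genes tested rose, 6.63% fell and 15.9% were called in either direction. The largest rise was that of PHLDA3, by 29.03%, followed by FDXR, BAX, DDB2, RPS27L, SERTAD1, CDKN1A, GDF15 and AEN, the last by 8.90%. The 2 that fell were PMAIP1 and MDM4. The median log2 change of the 36 genes was 0.07, against -0.01 over all genes tested, and 24 of them were above 0. In such bulk RNA, a change in every cell and a change in some of the cells cannot be told apart. The genes together took 0.162%, 0.161% and 0.162% of counts in the rhSP-D samples, against 0.153%, 0.154% and 0.156% in the vehicle samples. The 3 rhSP-D values lay above the 3 vehicle values for 12 of the 36 genes and below for 4, where 16.2% of all genes tested lay above, 15.4% below and 31.5% on either side. Without rhSP-D replicate 1 the call was made for 6 higher and 1 lower, without vehicle replicate 2 likewise for 6 and 1, and without vehicle replicate 1 for 8 and 2. Over all genes tested these fits called, in that order, 1042 higher and 636 lower, 1336 and 846, and 1293 and 842. With all libraries the all-gene counts were 1475 and 1051. No gene of the 36 was called lower without vehicle replicate 3, where 8 were higher, or with all libraries thinned to the depth of the shallowest, where 7 were higher. The calls lost by thinning were MDM4, PMAIP1, SERTAD1 and GDF15 (adjusted p = 0.174, 0.121, 0.132 and 0.0649, edgeR). Over all genes tested, 1067 were higher and 643 lower without vehicle replicate 3, and 1145 and 783 with thinning.

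**Figure D1:**
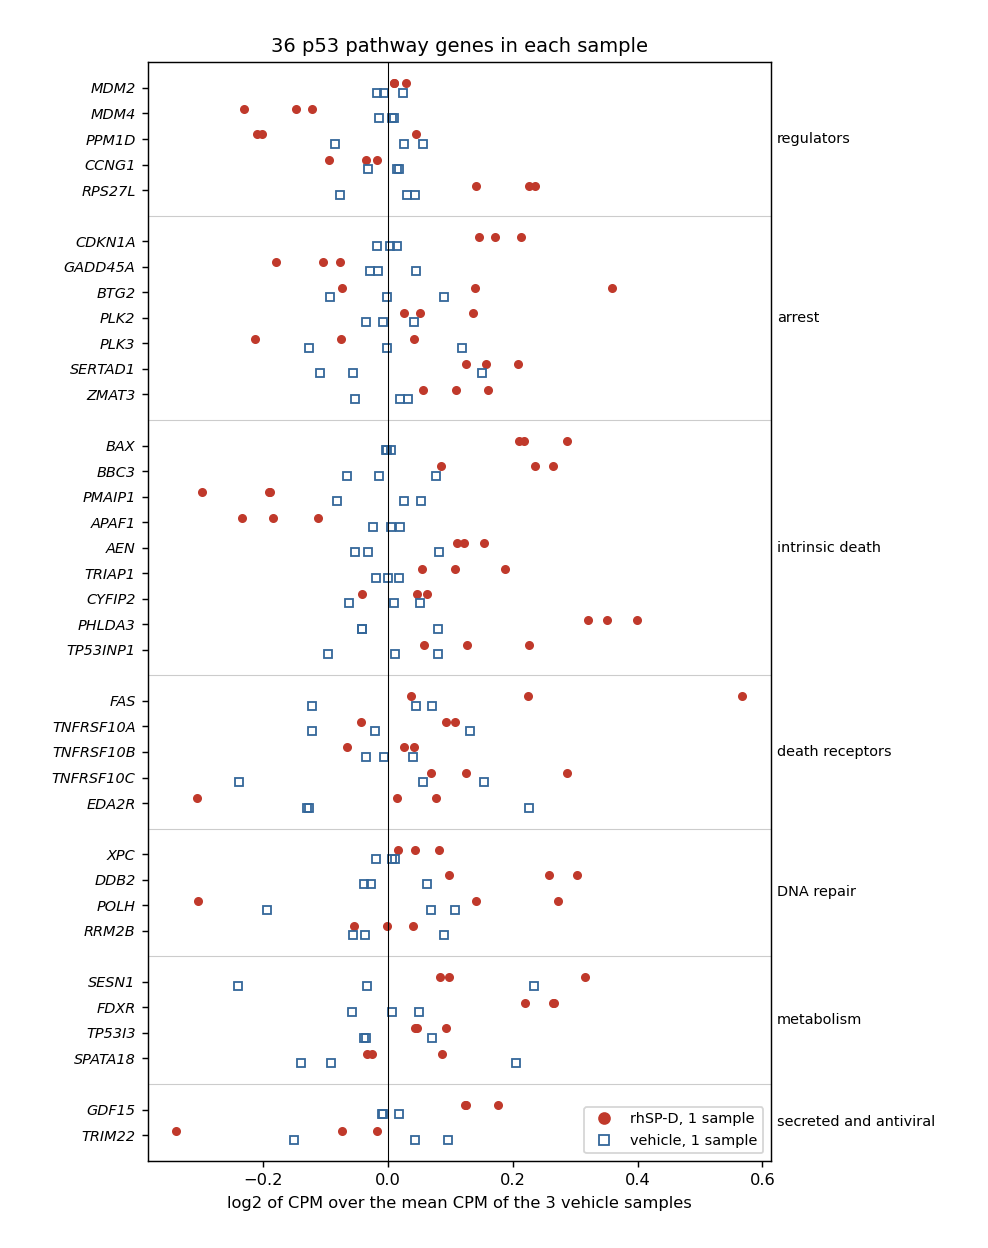
Each point is 1 sample's log2 ratio of CPM to the mean of the 3 vehicle samples, for 36 genes grouped by role, with rhSP-D as filled circles drawn above vehicle as open squares. The rhSP-D samples of PHLDA3, BAX, FDXR, CDKN1A, RPS27L and GDF15 stand to the right of all vehicle samples, and those of PMAIP1 and MDM4 to the left.

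Among the regulators, RPS27L rose, MDM4 fell, and MDM2, PPM1D and CCNG1 did not pass. RPS27L, a paralogue of ribosomal protein S27 that binds MDM2, was at 152, 161 and 162 CPM in rhSP-D samples 1 to 3, against 131, 142 and 141 CPM in vehicle samples 1 to 3. The lowest rhSP-D sample was above the highest vehicle sample, and the rise of 14.3% had an adjusted p of 9.60e-05 by edgeR's quasi-likelihood test (log2 change 0.19 ± 0.03 SE). MDM4 (chromosome 1, 204516379 to 204558120), which binds p53 and masks its activation domain, was at 42.5, 41.7 and 39.4 CPM in rhSP-D and 46.4, 45.7 and 46.5 CPM in vehicle. The groups did not overlap, and it fell by 10.7% (log2 change -0.16 ± 0.05 SE, adjusted p = 0.0139, edgeR). Leaving out rhSP-D replicate 3 (adjusted p = 0.0821, edgeR) or the vehicle library of that number (adjusted p = 0.0628) ended that call. It also ended with removal of trends on merged exonic length and GC content (log2 change -0.06, adjusted p = 0.537, edgeR).

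MDM2 (chromosome 12, 68808176 to 68850686), both the main ligase of p53 and its target, was at 60.3, 61.1 and 60.3 CPM in rhSP-D, against 59.6, 59.2 and 60.9 CPM in vehicle. The groups overlapped, and the change of 1.02% had a 95% interval from -4.41% to 6.75% (adjusted p = 0.858, edgeR). With length and GC trends removed its log2 change was 0.13 in place of 0.01 and it passed (adjusted p = 0.0260, edgeR). The length used there, 13284 nt of merged exons, can be longer than the transcript in use. The phosphatase PPM1D, which switches the damage response off, stood at a log2 change of -0.12 (adjusted p = 0.467), and the cyclin CCNG1, which recruits a phosphatase to MDM2, at -0.05 (adjusted p = 0.435). Neither passed, and in both the groups overlapped.

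The 7 genes grouped under cell cycle arrest form a broad group, and not all of them need arrest cells. Of these, 2 rose and none fell at the threshold, where 9.31% of all genes tested rose and 6.63% fell. None fell by DESeq2 either, which gave BTG2 no adjusted p. At an unadjusted p under 0.05 there were again 2, both higher. Such p-values were common: the gene ranked 4345th by p among 15848 tested stood at 0.0464 (edgeR). CDKN1A (chromosome 6, 36676460 to 36687339) encodes p21, the inhibitor of cyclin-dependent kinases through which p53 arrests cells. It was at 145, 143 and 149.6 CPM in rhSP-D, against 130.4, 127 and 129 CPM in vehicle. The lowest rhSP-D sample was above the highest vehicle sample, and the rise of 13.1% had an adjusted p of 4.45e-05 (edgeR, log2 change 0.18 ± 0.03 SE). Its exons overlap those of the antisense RNA DINOL over 146 of 3050 nt, and unless the counting used strand, reads of both genes are mixed there. SERTAD1, which binds cyclin-dependent kinase 4 and PHD domains, was at 42.0, 44.5 and 42.9 CPM in rhSP-D and 42.7, 35.7 and 37.0 CPM in vehicle. Vehicle replicate 1 lay among the rhSP-D samples, and SERTAD1 was the 1 called gene whose groups overlapped (rise of 13.2%, adjusted p = 0.0228, edgeR). Its call ended without any one of 4 libraries, vehicle replicates 2 and 3 and rhSP-D replicates 2 and 3 (adjusted p of 0.0642 to 0.153), and with library totals as the only scaling (adjusted p = 0.0824) or the trends removed (adjusted p = 0.227).

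The other genes grouped under arrest did not pass. GADD45A, a growth arrest and DNA damage protein, was at 23.2 ± 0.846 CPM in rhSP-D and 25.2 ± 0.695 CPM in vehicle (SD, n = 3), with all 3 rhSP-D samples below the vehicle samples and an adjusted p of 0.210 (edgeR). ZMAT3, an RNA-binding protein that alters splicing, lay above vehicle in all 3 rhSP-D samples, at 15.5 ± 0.562 CPM against 14.3 ± 0.451 CPM (adjusted p = 0.408, edgeR). The kinase PLK2 was at 98.2 ± 3.96 CPM in rhSP-D and 93.4 ± 2.55 CPM in vehicle (adjusted p = 0.188, edgeR), and passed with the trends removed (log2 change 0.11, adjusted p = 0.0470). The kinase PLK3 and the antiproliferative gene BTG2 had log2 changes of -0.08 and 0.17, with overlapping groups. With 1 library left out PLK3 ranged from -0.15 to -0.019 and BTG2 from 0.045 to 0.26.

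The 9 genes grouped under intrinsic death moved both ways, with 3 higher and 1 lower, where 9.31% of all genes tested rose and 6.63% fell. The group is broad, and not all of its genes act in the mitochondrial route. PHLDA3 (ENSG00000174307, chromosome 1, 201464383 to 201469237), which competes with AKT for membrane lipids and so curbs its survival signal, was at 107, 104 and 102 CPM in rhSP-D, against 86.01, 79.1 and 79.0 CPM in vehicle. No sample of one group came near the other, and PHLDA3 ranked 50th by p among all genes tested (log2 change 0.37 ± 0.04 SE, adjusted p = 2.05e-08, edgeR). BAX (chromosome 19, 48954815 to 48961798), which opens pores in the outer mitochondrial membrane, was at 126, 119.6 and 120.3 CPM in rhSP-D and 103, 104 and 103 CPM in vehicle. The 3 vehicle samples of BAX were almost equal, and all rhSP-D samples lay above them (rise of 18.2%, log2 change 0.24 ± 0.03 SE, adjusted p = 1.87e-06, edgeR). AEN, a nuclease that fragments DNA in dying cells, was at 68.9, 67.4 and 66.9 CPM in rhSP-D and 59.7, 60.6 and 65.5 CPM in vehicle.

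The rise of AEN was close to the threshold (adjusted p = 0.0363, edgeR, log2 change 0.12 ± 0.04 SE) and ended without any one of 5 libraries, all but vehicle replicate 3 (adjusted p of 0.0583 to 0.154), with DESeq2 (adjusted p = 0.0568) and with library totals as the only scaling (adjusted p = 0.179). PMAIP1 (chromosome 18, 59899948 to 59904306) encodes NOXA, a BH3-only protein that neutralises MCL1, and moved against BAX. It was at 18.4, 19.8 and 19.8 CPM in rhSP-D, against 21.4, 23.5 and 23.0 CPM in vehicle. All rhSP-D samples were lower, and it fell by 15.1% (log2 change -0.24 ± 0.07 SE, adjusted p = 0.0160, edgeR); the call ended when rhSP-D replicate 1 was left out (adjusted p = 0.103), and likewise for vehicle replicates 2 and 3 (adjusted p of 0.0744 and 0.0726).

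BBC3, which encodes PUMA, the other BH3-only protein of the pathway, was at 19.99, 20.4 and 18.02 CPM in rhSP-D and 17.9, 16.2 and 16.8 CPM in vehicle. The groups did not overlap, yet the difference just missed the threshold (log2 change 0.21 ± 0.07 SE, adjusted p = 0.0613, edgeR), with a 95% interval from 3.63% to 28.2%; without rhSP-D replicate 3 it passed (log2 change 0.25, adjusted p = 0.0382). APAF1, the scaffold of the apoptosome, lay below vehicle in all rhSP-D samples at 11.9 ± 0.504 CPM against 13.4 ± 0.208 CPM (SD, n = 3, adjusted p = 0.181, edgeR). TRIAP1, a small mitochondrial protein that protects cells from apoptosis, lay above vehicle in all rhSP-D samples at 38.5 ± 1.79 CPM against 35.5 ± 0.452 CPM (SD, n = 3, adjusted p = 0.109, edgeR). CYFIP2, a subunit of the actin-regulating WAVE complex, and TP53INP1, an autophagy-linked cofactor of p53, had log2 changes of 0.01 and 0.13, and their groups overlapped.

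**Figure D2:**
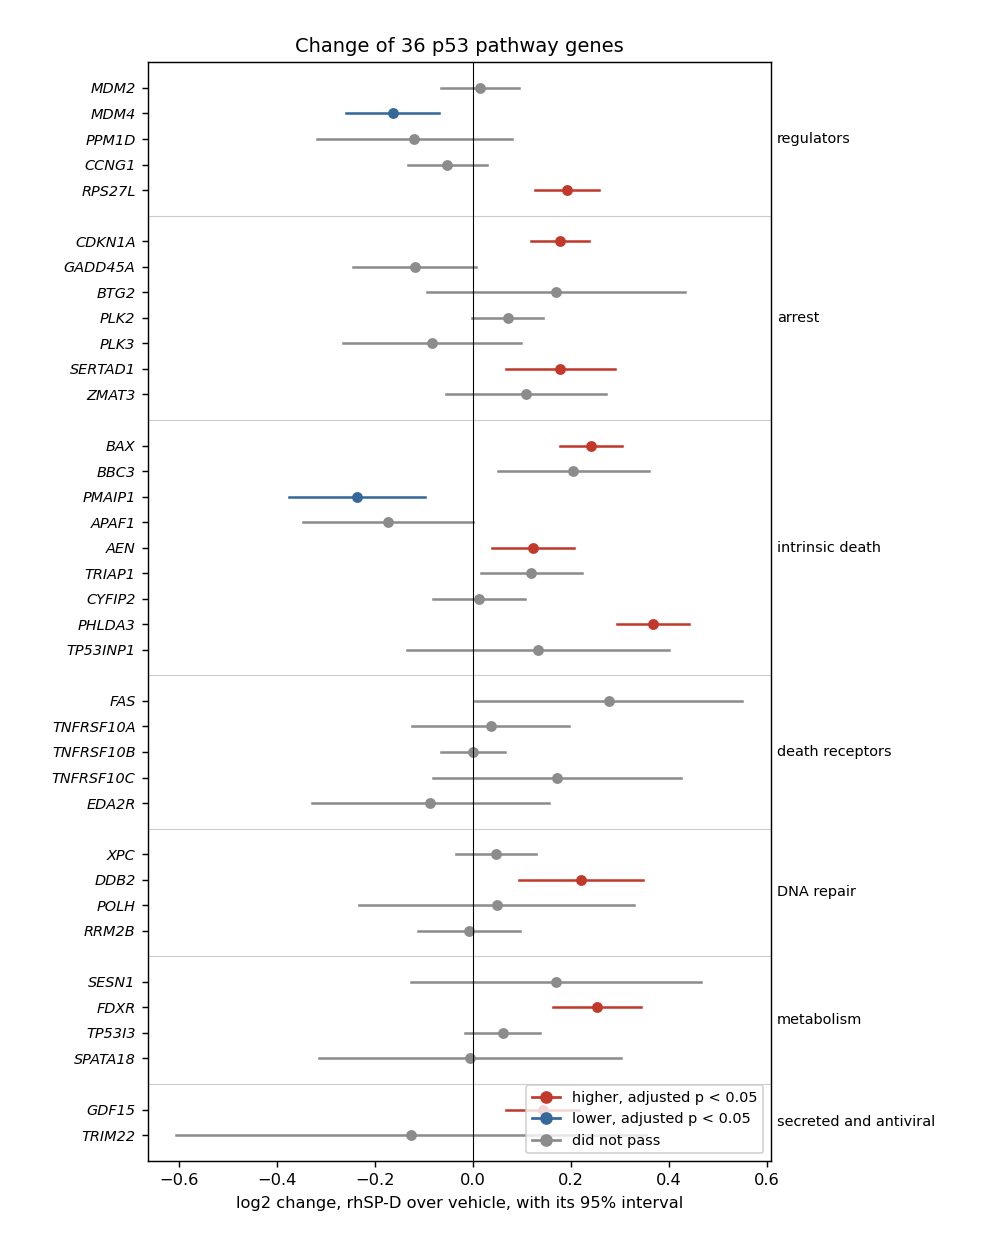
Points give the log2 change of each gene, rhSP-D over vehicle, with its 95% interval as a line, in red for genes that rose, blue for genes that fell and grey for genes that did not pass. PHLDA3 has the largest rise (0.37), and scarce genes such as TRIM22 have the widest intervals. The 5 death receptor genes are all grey, where 15.9% of all genes tested were called.

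None of the 5 genes of death receptors passed with edgeR, where 15.9% of all genes tested were called. With DESeq2 none passed either, but FAS and TNFRSF10C had no adjusted p there. By edgeR 1 gene of the 5 had an unadjusted p under 0.05, at 0.0464, and ranked 4345th by p among 15848 genes tested. That gene was FAS, the receptor of FAS ligand, at 7.26, 9.22 and 6.37 CPM in rhSP-D and 5.71, 6.52 and 6.41 CPM in vehicle. Its groups overlapped, with rhSP-D replicates 1 and 2 above all vehicle samples and replicate 3 among them (log2 change 0.28 ± 0.13 SE, adjusted p = 0.169, edgeR). The 95% interval ran from 0.326% to 46.4%, and without rhSP-D replicate 2 the log2 change was 0.13. TNFRSF10B, the TRAIL receptor DR5 and the most abundant of the group at 125.7 CPM in rhSP-D and 125.6 CPM in vehicle, had an interval from -4.42% to 4.62%. TNFRSF10A, the TRAIL receptor DR4, TNFRSF10C, a decoy receptor without a death domain, and EDA2R, a receptor of ectodysplasin A2, had log2 changes of 0.04, 0.17 and -0.09, with overlapping groups.

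Of the 4 DNA repair genes 1 rose, where 9.31% of all genes tested rose. DDB2 (chromosome 11, 47214465 to 47239240), which finds ultraviolet lesions for nucleotide excision repair, was at 31.9, 30.9 and 27.7 CPM in rhSP-D and 25.2, 25.4 and 27.0 CPM in vehicle. The lowest rhSP-D sample was just above the highest vehicle sample, and the rise of 16.5% had an adjusted p of 0.0125 (edgeR, log2 change 0.22 ± 0.06 SE). Leaving out rhSP-D replicate 1 (adjusted p = 0.123) ended the call, and so did leaving out vehicle replicate 2 (adjusted p = 0.0507). XPC, the damage sensor that acts after DDB2, lay above vehicle in all rhSP-D samples, at 61.2 ± 1.42 CPM against 59.2 ± 0.662 CPM (SD, n = 3), and did not pass (adjusted p = 0.482, edgeR). RRM2B, a ribonucleotide reductase subunit that supplies nucleotides for repair, and POLH, a polymerase that bypasses lesions, had log2 changes of -0.01 and 0.05.

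Of the 4 metabolic genes 1 rose, beside 9.31% of all genes tested. FDXR (chromosome 17, 74862497 to 74873031), a mitochondrial reductase that passes electrons to ferredoxin, was at 52.3, 54.0 and 54.0 CPM in rhSP-D, against 46.5, 43.2 and 45.1 CPM in vehicle. All rhSP-D samples lay above the vehicle samples (rise of 19.2%, log2 change 0.25 ± 0.04 SE, adjusted p = 1.31e-04, edgeR). TP53I3, a quinone oxidoreductase, was at 77.9 ± 1.51 CPM in rhSP-D and 74.6 ± 3.26 CPM in vehicle (SD, n = 3, adjusted p = 0.315, edgeR). SESN1, a sestrin that restrains mTORC1, and SPATA18, which takes part in mitochondrial quality control, were scarce, with log2 changes of 0.17 ± 0.14 and -0.01 ± 0.15 (SE). SESN1 ranged from 0.046 to 0.32 with 1 library left out. GDF15, a secreted stress cytokine, was at 77.8, 75.03 and 74.99 CPM in rhSP-D and 68.4, 68.4 and 69.7 CPM in vehicle. The groups did not overlap (rise of 10.4%, adjusted p = 0.00645, edgeR), but the call ended without rhSP-D replicate 1 (adjusted p = 0.0555), with library totals as the only scaling (adjusted p = 0.0523) and with the trends removed (log2 change 0.05 in place of 0.14, adjusted p = 0.504). TRIM22, an antiviral gene also induced by interferon, was the scarcest, at 1.76 ± 0.202 CPM in rhSP-D and 1.93 ± 0.169 CPM in vehicle (SD, n = 3, adjusted p = 0.787, edgeR), with an interval from -34.2% to 27.8%.

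Levels per exonic length, given as RPKM (CPM per kilobase, over the merged exons of GENCODE 29), spread widely. In vehicle CDKN1A was highest at 42.3 RPKM, followed by BAX at 40.0, GDF15 at 33.0, TP53I3 at 32.3 and PHLDA3 at 25.9 RPKM. This order depends on the length used, since merged exons of all annotated transcripts can be longer than the transcript in use. By CPM, RPS27L (9127 nt) stood above CDKN1A (3050 nt) in vehicle, at 138 against 129 CPM. In rhSP-D CDKN1A was at 47.8 ± 1.13 RPKM and BAX at 47.2 ± 1.38 RPKM (SD, n = 3), a difference within their spread. MDM2 stood at 4.56 RPKM in rhSP-D and 4.51 RPKM in vehicle, and TRIM22 was lowest at 0.292 RPKM in rhSP-D and 0.321 RPKM in vehicle. None of the 9 genes under 10 CPM in vehicle was called by edgeR.

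**Figure D3:**
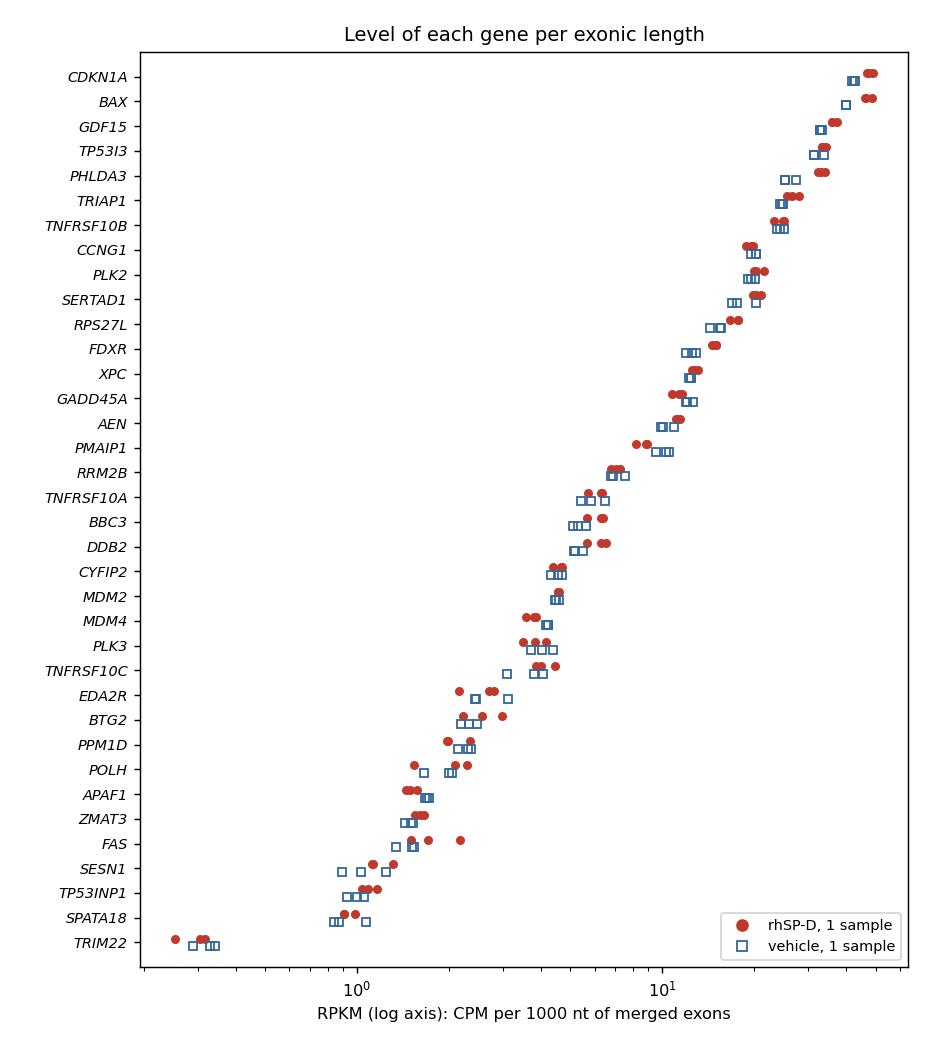
Points give each sample's level in RPKM on a log axis, for 36 genes ordered by their vehicle mean, with rhSP-D as filled circles drawn above vehicle as open squares. Levels run from 0.321 RPKM (TRIM22) to 42.3 RPKM (CDKN1A) in vehicle, and differences between groups are small beside differences between genes.

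GC content of the longest transcript and merged exonic length differed between the genes that rose and the others. The 9 that rose had a median GC content of 58.05% and a median exonic length of 3138 nt, against 45.2% and 4768 nt in the 25 that did not pass, and 39.8% in the 2 that fell. Across the 36 genes the log2 change had a Pearson r of 0.46 with GC content and -0.21 with log2 length, given as a description, since the genes share the same libraries. After spline trends on both were removed from each library, r was 0.10 with GC and 0.18 with log2 length, the latter with its sign changed. Removal of a GC trend tends by design to lower r with GC. There 9 genes rose and 1 fell, where 8.07% of 15347 genes rose, 2.7% fell and 10.8% were called in all. Of the 11 genes called before, 8 were called again, and SERTAD1, GDF15 and MDM4 were not, while MDM2 and PLK2 were added. PHLDA3, RPS27L, BAX, FDXR and CDKN1A passed there too, at log2 changes of 0.30, 0.29, 0.16, 0.19 and 0.12. These values depend on the merged exonic length, which can exceed that of the transcript in use and was 13284 nt for MDM2 and 9127 nt for RPS27L.

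**Figure D4:**
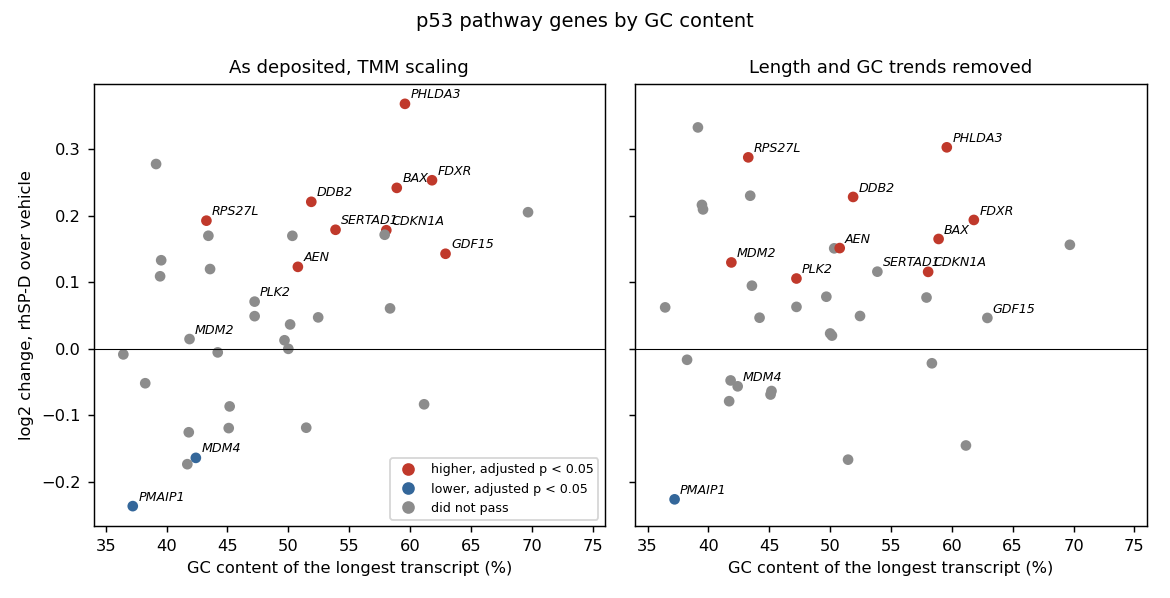
Each point is 1 of 36 genes, with the GC content of its longest transcript in percent on the horizontal axis and its log2 change, rhSP-D over vehicle, on the vertical axis, before (left) and after (right) removal of length and GC trends. The slope on the left (r = 0.46) is nearly gone on the right (r = 0.10), where MDM2 and PLK2 turn red and MDM4, SERTAD1 and GDF15 turn grey.

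Other p53 targets, outside the 36, were called in both directions. Of 83 tested 14 rose and 6 fell, 24.1% against 15.9% of all genes, with a median log2 change of 0.03, but with library totals as the only scaling 5 rose and 10 fell and the median was -0.01, and over all genes that scaling gave 856 higher and 1961 lower in place of 1475 and 1051. PHPT1, GADD45B, TSKU and ZNF219 rose by 13.4%, 11.8%, 7.76% and 10.9%. TGFA, a ligand of the EGF receptor, fell by 22.6%, the translation regulator CPEB4 fell by 14.4% and the sestrin SESN2 fell by 10.1%. The cytokine LIF fell by 6.92% and the phosphatase PTP4A1 fell by 5.04%. With the trends removed PHPT1, GADD45B, CPEB4 and PTP4A1 did not pass (adjusted p = 0.129, 0.139, 0.159 and 0.761, edgeR), and SESN2 did not pass with DESeq2 (adjusted p = 0.0635). The counts of called genes were 7 higher and 4 lower without rhSP-D replicate 1, 6 and 4 without rhSP-D replicate 2, 7 and 5 without vehicle replicate 2 and 8 and 3 without vehicle replicate 3. Over all genes those fits called 1678, 2162, 2182 and 1710, in place of 2526.

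Genes that act on p53 were lower more often than higher. Of 29 tested 3 rose and 8 fell, 37.9% against 15.9% of all genes, with a median log2 change of -0.03. EP300 and CREBBP, the acetyltransferases that p53 recruits, fell by 17.5% and 13.4%: EP300 was at 52.0 ± 1.77 CPM in rhSP-D and 62.9 ± 1.497 CPM in vehicle, and CREBBP at 64.4 ± 1.19 CPM in rhSP-D and 74.6 ± 2.04 CPM in vehicle (SD, n = 3). The deacetylase SIRT1 fell by 15.4%, the damage kinase ATM by 12.8% and the ubiquitin ligase HUWE1 by 8.44%. RPL11 and RPL5, ribosomal proteins that bind MDM2, rose by 13.6% and 10.5%. With the trends removed 4 rose and 3 fell, the median was 0.03, and ATM and HUWE1 no longer passed (adjusted p = 0.445 and 0.103, edgeR). Without rhSP-D replicate 1 the counts were 2 and 5, and over all genes 1042 and 636 in place of 1475 and 1051.

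Cell cycle genes that p53 represses through p21 and the DREAM complex were called at a rate near the background: 3 of 25, or 12%, against 15.9% of all genes. ECT2, an exchange factor of cytokinesis, RBL1, the p107 pocket protein, and PRC1, a midzone protein, fell by 12.5%, 18.2% and 7.21%. None rose with edgeR or DESeq2, and the median was -0.05. An unadjusted p under 0.05 was reached by 8 of the 25 (edgeR), of which 3 were higher and the rest lower. Library totals as the only scaling gave 5 lower, without vehicle replicate 3 only 1 was lower, and with the trends removed 2 rose and 2 fell. Over all genes 1961, 643 and 415 were lower in these settings, in place of 1051. RBL1 and PRC1 did not pass with the trends removed (adjusted p = 0.0812 and 0.184, edgeR).

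**Figure D5:**
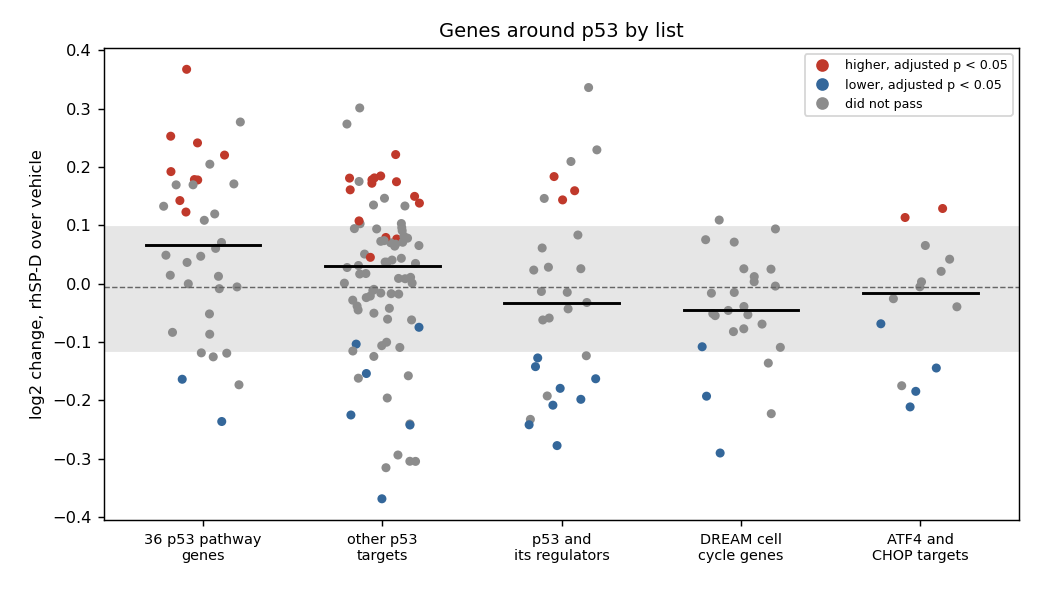
Each point is a tested gene of the list named below it, at its log2 change, rhSP-D over vehicle, coloured as higher, lower or not passed, with a black bar at the list's median, and the grey band spans the middle 50% of all genes tested, from -0.12 to 0.10 around a dashed median. Of the 5 lists drawn, the 36 genes have the highest median (0.07), and those of p53 regulators (-0.03) and DREAM genes (-0.05) lie below 0.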

How the data were processed

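The authors deposited whole-number counts per Ensembl gene, not normalized, for 6 samples. The tools named per the submitters' processing notes are STAR 2.7.0a, featureCounts 2.0.0 and cutadapt, with GRCh38 (hg38). Annotation release and strand setting: not given in the sources used here. Coordinates, exonic lengths and GC content came from GENCODE 29 (GRCh38), in which all 36 genes have an identifier; 13 overlap exons of the opposite strand, of which 1, CDKN1A, was called. Promoter sequences are from RefSeq (GRCh38.p14).

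Groups were taken from the titles. Low counts were removed with filterByExpr (10 per library, 15 in total) and the rest scaled by TMM, and tested with the robust quasi-likelihood test of edgeR 4.0.16 in R 4.3.3, 2-sided, with Benjamini-Hochberg adjustment over 15848 genes and calls at an adjusted p under 0.05. CPM use TMM-scaled totals. No library was a copy of another (chi-square per degree of freedom 1.92 to 2.15 within groups, 3.90 to 6.15 between). The procedure was tested on simulated data. The 36 genes and all lists were chosen with earlier results of these data known, so counts over lists are descriptions. All 36 genes are named; of the other lists, up to 5 called genes per direction with the smallest p, besides CDKN2A; some genes under this rule are not reported here. Paralogues were named for comparison. Alternatives were DESeq2 1.42.0 and its size factors, library totals, no filter on low counts, a replicate block, removal of length and GC trends by splines with 5 degrees of freedom, thinning, each library left out and a threshold of 0.01. DESeq2 gave an adjusted p for 28 of the 36 genes and none for the others. Floors of 3 counts cover counting error only.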

Additional observations from a re-analysis of the deposited data

How the results depend on the processing

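Of the 11 called genes 5 (PHLDA3, BAX, FDXR, CDKN1A and RPS27L) kept their call under all 14 alternatives. With length and GC trends removed 1654 of all genes and 7 of the p53 regulators were called, and 1239 of all genes were higher and 415 lower. At an adjusted p under 0.01 the counts were 1465 of all genes, 6 of the 36 and 9 of the other p53 targets; thinning left 7 of the 36, and library totals 5 DREAM genes. With 1 library left out the calls ranged from 1678 to 2182 of all genes, 7 to 10 of the 36, 10 to 16 of the other targets, 7 to 12 of the regulators and 1 to 4 of the DREAM genes. The cause of these differences was not tested.

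Among the 36 genes, signs changed only for genes that did not pass: with library totals for MDM2 (-0.026), CYFIP2 (-0.028) and TNFRSF10A (-0.0045); with trends removed for TNFRSF10B (0.023), RRM2B (0.062), TP53I3 (-0.022) and SPATA18 (0.047); with thinning for TNFRSF10B (0.041) and SPATA18 (0.029); for TNFRSF10B with DESeq2 size factors (0.00044), no filter (0.0050) and DESeq2 (0.0024); and for SPATA18 with the replicate block (0.0083). With 1 library left out the log2 changes ranged from -0.0096 to 0.047 for CYFIP2, -0.0092 to 0.11 for TNFRSF10A, -0.023 to 0.029 for TNFRSF10B, -0.16 to 0.056 for EDA2R, -0.065 to 0.19 for POLH, -0.040 to 0.046 for RRM2B and -0.059 to 0.12 for SPATA18.

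Replicate numbers showed no sign of pairing: deviations of same-numbered samples had correlations of -0.08, -0.07 and 0.03. Those of differently numbered samples ran from -0.06 to 0.13. With 3 samples per group these values cannot settle whether the samples were paired. With the replicate block 2319 of all genes, 11 of the 36, 16 of the other targets, 11 of the regulators and 3 DREAM genes were called. The 95% intervals of the 36 genes, not adjusted for the number of genes tested, had half-widths of 4.52 to 31.03 percentage points. Changes smaller than a gene's half-width could be missed, and so could some larger ones. BBC3, with an interval from 3.63% to 28.2%, did not pass.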

Other observations

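Paralogues of the 36 genes gave these values, chosen for comparison by family and not tested against their partners. RPS27, the ribosomal paralogue of RPS27L, rose by 15.1% (587 ± 8.54 CPM in rhSP-D, 510.5 ± 7.40 CPM in vehicle, SD, n = 3, adjusted p = 7.98e-09, edgeR), and reads of such a pair can be shared. SESN2 and SESN3, sestrins beside SESN1, both fell, though SESN2 did not pass with DESeq2 (adjusted p = 0.0635). SESN3 fell by 20.9% (20.2 ± 1.27 CPM in rhSP-D, 25.3 ± 2.51 CPM in vehicle, adjusted p = 0.00156, edgeR). GADD45B rose, but not with length and GC trends removed (log2 change 0.07, adjusted p = 0.139, edgeR), GADD45A did not pass, and GADD45G was too scarce to test. BTG1 rose by 5.46%, but with library totals as the only scaling it did not pass (log2 change 0.04, adjusted p = 0.374, edgeR), nor did BTG3 by the main scaling (adjusted p = 0.206, edgeR). The decoy receptor gene TNFRSF10D and the kinases PLK1 and PLK4 did not pass (adjusted p = 0.323, 0.966 and 0.136, edgeR).

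Genes of the ATF4 and CHOP stress response, which shares targets such as SESN2 and PMAIP1 with p53, were called in both directions. Of 14 tested 2 rose and 4 fell, 42.9% against 15.9% of all genes: ATF4 itself rose by 8.19% and PHGDH, an enzyme of serine synthesis, by 9.36%, whereas CHAC1 fell by 13.6%, STC2 fell by 12.003%, TRIB3 fell by 9.53% and XBP1 fell by 4.64%. The median was -0.02. With length and GC trends removed ATF4 (adjusted p = 0.148) and XBP1 (adjusted p = 0.363) no longer passed (edgeR), and XBP1 did not pass with DESeq2 (adjusted p = 0.0647). Of 5 tested inhibitors of cyclin-dependent kinases other than CDKN1A, 0 were called by edgeR or DESeq2, and 0 had an unadjusted p under 0.05.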
